A study of Mus musculus with 7 samples.

Results

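Translation factors are the proteins that bring ribosomes to messenger RNA and drive them along it. Their transcripts, with that of the kinase Eef2k, were compared between ACLY knockout and wild type CD8 T cells of mice. The genes were chosen by name: every measured gene whose symbol begins with Eif and a digit from 1 to 6, or with Eef and 1 or 2, without pseudogenes and without the Eif2ak kinases. This gave 61 of 16156 measured genes. Divided by symbol and not by function, 49 were placed under initiation, 11 under elongation (6 factors and 5 methyltransferases that modify them), and 1 is Eef2k.

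Every library held congenically marked OT-I CD8 T cells, whose transgenic receptor recognises an ovalbumin peptide, on a C57Bl/6 background. The cells had been transferred 1 day ahead of an infection with LmOVA, Listeria monocytogenes that carries ovalbumin, and were taken 6 days after it. By label, 3 libraries came from ACLY KO cells, without ATP citrate lyase, which makes acetyl-CoA from citrate, and 4 from WT cells. How, and in which cells, the gene was deleted is not stated in the labels. They also do not tell whether the libraries are separate animals, and p-values therefore reflect the spread among these libraries, which may be technical.

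Initiation factors load the small ribosomal subunit with initiator tRNA (eIF2, recharged by eIF2B), hold it open for scanning (eIF1, eIF1A, eIF3), join it to the mRNA cap through eIF4F (the cap-binding eIF4E, the scaffold eIF4G and the helicase eIF4A) and let the large subunit join (eIF5, eIF5B). Elongation factors then deliver aminoacyl-tRNA (eEF1A, recharged by eEF1B) and move the ribosome by a codon (eEF2). Eef2k encodes a calmodulin-dependent kinase that phosphorylates eEF2 and so slows elongation. AMPK activates this kinase and mTORC1 signalling inhibits it. T cells build up the translation machinery when they are activated.

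The libraries were unequal. They held 45288353 to 75586011 counts in WT and 37473484 to 39692359 in KO, and levels are given as CPM, counts scaled to a common library size with the TMM method. The targeted gene, Acly, stood at 276 to 414 CPM in WT and at 262, 62.0 and 209 CPM in the KO libraries in replicate order, so its transcript was still present in KO. The summed level of 6 CD8 T cell markers was 5149 to 6847 CPM in WT, and 2258, 5580 and 5510 CPM in KO. For 10 B cell markers the sum was 12.7 to 20.6 CPM in WT and 6162, 199 and 103 CPM in KO, and each of the 10 was higher in every KO library than in any WT library. The defining B cell genes Pax5 and Ms4a1 had a count of 0 in 3 and 2 libraries, all of them WT. Red cell markers (5 genes) summed to 46016, 6430 and 238 CPM in KO and to 1.48 to 465 CPM in WT. WT replicate 4 stood apart by its 12 markers of dividing cells, which summed to 3346 CPM, with 269 to 298 CPM in WT replicates 1 to 3 and 213 to 813 CPM in KO. The receptor segments of OT-I cells made up 84.5% to 99.2% of their gene family's counts in WT and 46.7%, 23.2% and 61.8% in KO. Fewer cells of a type and less RNA per cell cannot be told apart in such bulk samples. Several results are therefore also given without KO replicate 1 and WT replicate 4.

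Most translation factor transcripts lay close to the WT level in ACLY KO cells, and Eef2k did not. Of the 61 genes, 56 (91.8%) differed by less than 0.5 on the log2 scale, where 60.4% of all genes did, and the median size of the log2 difference was 0.23, where it was 0.38 over all genes. The 95% interval of the log2 difference lay between -1 and 1 for 51 of the 61 genes (83.6%) and for 39.7% of all genes. The 61 transcripts are abundant, with a median of 101.9 CPM and 14.4 CPM over all genes, and so are counted more precisely than most. The 5 genes beyond 0.5 were Eef2k, Eif2s3y and Eef2kmt above 0, and Eif2s2 and Eif2s3x below 0.

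No member passed the quasi-likelihood test of edgeR at an adjusted p of 0.05 (Benjamini-Hochberg over all genes); percent called was 0 in each direction. At an unadjusted p under 0.05, 3 of the 61 were higher and 3 lower, where 11.0% of all genes were higher and 7.89% lower. DESeq2 called Eef2k higher and both Eif2s2 and Eif2s3x lower, in a test that called 7.13% of genes higher and 3.61% lower. Limma voom with quality weights called Eef2k alone among the 61, and 5.32% of all genes higher and 1.68% lower.

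**Figure D1:**
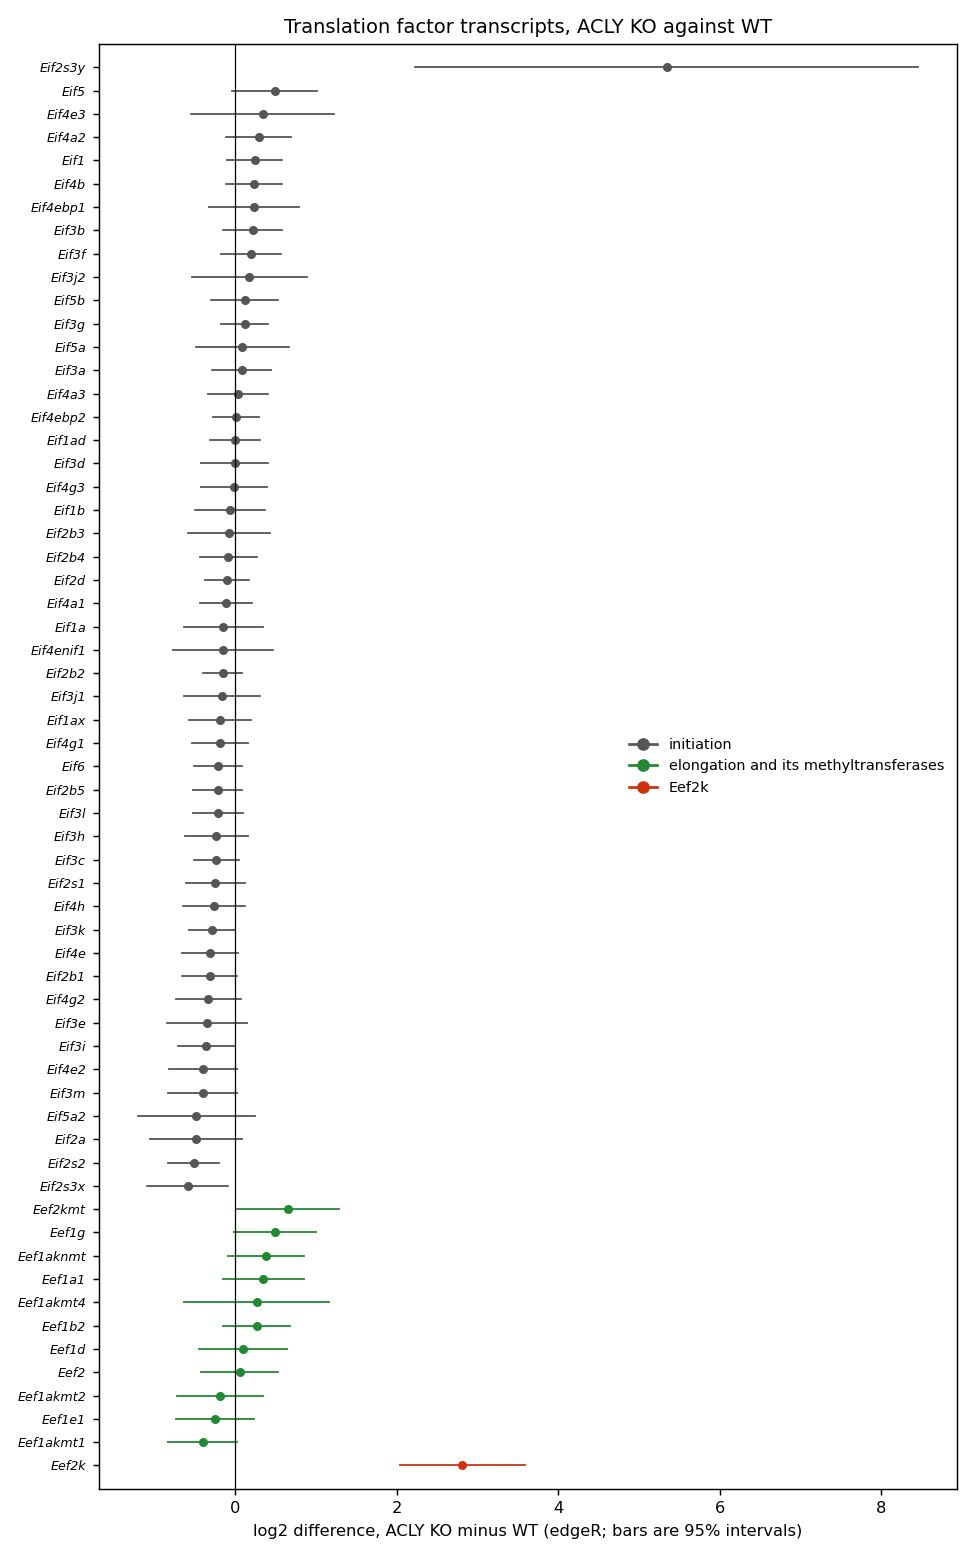
Log2 difference of each of the 61 genes (x axis, ACLY KO minus WT) with its 95% interval from edgeR; initiation factors in grey, elongation factors and their methyltransferases in green, Eef2k in red. Most intervals cross 0, while those of Eef2k (2.04 to 3.59) and Eif2s3y (2.23 to 8.46) lie far to the right.

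By their median, initiation factors lay slightly below the WT level with all libraries. Of the 49 genes, 33 lay below 0 and 16 above. At -0.14, the median log2 difference was below that of all genes, 0.00. Summed over the 49 genes, KO libraries averaged 8863 ± 217 CPM (SD, n = 3) and WT libraries 9220 ± 464 CPM (SD, n = 4), so the means were closer than the spread among WT libraries. In 8 genes every KO library was below every WT library (16.3%, and 9.03% of all genes), and in 1 every KO library was above (2.04%, and 9.46% of all genes). The 8 were Eif2s2, Eif2s3x, Eif2b1, Eif2b2, Eif3c, Eif3k, Eif4e and Eif4e2. With upper-quartile scaling 3 genes lay wholly below and 2 wholly above (7.36% and 10.3% of all genes). Without KO replicate 1 and WT replicate 4, 9 lay wholly below and 12 wholly above (25.4% and 22.3% of all genes), and the median log2 difference was 0.00. It was -0.08 without WT replicate 4 alone. Relative to the WT mean, the median over the 49 genes was -0.12, -0.14 and -0.06 (log2) in the KO libraries. In the WT libraries it was -0.05, -0.10, -0.02 and 0.19, so WT replicate 4 was the highest.

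With all libraries, Eif2s3x and Eif2s2 of eIF2 had the lowest log2 differences among initiation factors; without KO replicate 1 and WT replicate 4, Eif2a (-0.74) and Eif5a2 (-0.70) were lower than Eif2s3x (-0.55). Eif2s2, the beta subunit (chromosome 2 in mm10, minus strand), read 97.2, 115, 89.3 and 106 CPM in the WT libraries and 75.8, 74.7 and 63.9 CPM in the KO libraries. Every KO library was below every WT library. The log2 difference was -0.51 ± 0.13 (SE; 95% interval -0.82 to -0.20), which edgeR did not call (adjusted p = 0.113) and DESeq2 did (adjusted p = 0.0236). It was -0.52 without KO replicate 1 and WT replicate 4. Eif2s1, the alpha subunit that stress kinases phosphorylate, averaged 160 ± 19.2 CPM (KO) and 189 ± 27.3 CPM (WT), with overlapping groups (SD over 3 and 4 libraries, here and in what follows).

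The gamma subunit of eIF2 is encoded by a gene on the X chromosome, Eif2s3x, and a close relative on the Y chromosome, Eif2s3y, and reads may be assigned to the wrong one of the pair. RefSeq stretches of both (GRCm38.p6) are shown because the Y-linked gene had the largest fitted difference of all 61 genes. Each holds the letters AAGATGG, in capitals. Lined up on these letters, whose match was thus set in advance, the pair share 17 of 30 bases by position. The X-linked stretch is chrX:94212629-94212658 on the minus strand and the Y-linked one chrY:1010592-1010621 on the plus strand.
Eif2s3x: cattttccttttctctccgagcAAGATGGc
Eif2s3y: gccacttccttctttcgtgagcAAGATGGc

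Eif2s3y read 1.03, 1.39, 0.730 and 1.71 CPM in the WT libraries and 140, 2.91 and 5.37 CPM in the KO libraries in replicate order. KO replicate 1 was far above all other libraries. Other Y-linked genes were high in the same library: Ddx3y stood at 117 CPM, Kdm5d at 45.8 CPM and Uty at 41.8 CPM there, and none exceeded 7.11 CPM elsewhere. Xist, which marks the inactive X chromosome of female cells, was at 6.12 CPM in KO replicate 1 and at 16.0 to 54.7 CPM in the other 6 libraries. The fitted log2 difference of Eif2s3y was 5.34 ± 1.34 (SE; edgeR adjusted p = 0.103), and 1.76 without KO replicate 1 (adjusted p = 0.115). Eif2s3x read 16, 14.4, 14 and 18 CPM in the WT libraries and 11.3, 10.5 and 9.44 CPM in the KO libraries, without overlap. Its lowest library was KO replicate 3, and Eif2s3y was highest in KO replicate 1. Whether reads were exchanged between the pair was not tested. The log2 difference of Eif2s3x was -0.58 ± 0.21 (SE; edgeR adjusted p = 0.207, DESeq2 adjusted p = 0.0376).

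All 5 subunits of eIF2B, the exchange factor that recharges eIF2, were below 0, with log2 differences from -0.31 to -0.08. Without KO replicate 1 and WT replicate 4, 3 of the 5 were below 0, Eif2b3 was at 0.01, Eif2b4 at 0.12 and Eif2b1 at -0.14. Eif2b1, the alpha subunit, read 59.8, 60.8, 60.4 and 74.1 CPM in the WT libraries and 46.2, 58.9 and 49.3 CPM in the KO libraries, wholly below WT but only just in KO replicate 2. Eif2b5, the catalytic epsilon subunit, averaged 91.1 ± 10.2 CPM (KO) and 106 ± 9.25 CPM (WT) and overlapped. Neither passed edgeR's test (adjusted p = 0.310 and 0.432).

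The 14 genes of eIF3, the scaffold that binds the small subunit, were split, with 9 below 0 and 5 above and none beyond 0.5 on the log2 scale. Eif3k, a peripheral subunit, read 169, 167, 160 and 205 CPM in the WT libraries and 137, 145 and 150 CPM in the KO libraries, without overlap (log2 difference -0.28 ± 0.12, SE; edgeR adjusted p = 0.274). Eif3i averaged 94.4 ± 10.5 CPM (KO) and 121 ± 16.9 CPM (WT), with KO replicate 2 level with the lowest WT library. Eif3b, a core subunit, was higher in KO on average, 313 ± 20.4 CPM (KO) and 269 ± 44.3 CPM (WT), and overlapped with all libraries. Without KO replicate 1 and WT replicate 4, Eif3a, Eif3b, Eif3f and Eif3j2 lay wholly above WT, as did 22.3% of all genes. Their log2 differences were then 0.23, 0.38, 0.40 and 0.40. Of the 14 genes only Eif3k then lay wholly below (log2 difference -0.15), as did 25.4% of all genes. Eif3j1 and Eif3j2 are near-identical copies, so their separate levels are uncertain.

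Of the factors that guard start codon choice, Eif1 averaged 667 ± 70.2 CPM (KO) and 564 ± 55.6 CPM (WT). Eif1ax, a gene of eIF1A, averaged 61.8 ± 8.35 CPM (KO) and 70.3 ± 10.7 CPM (WT). Both overlapped between the groups, with 95% intervals of the log2 difference from -0.10 to 0.58 and from -0.57 to 0.20.

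Cap binding by eIF4E is a regulated step of initiation, and 2 of the 3 cap-binding genes lay wholly below WT (9.03% of all genes did). Eif4e read 78.2, 96.9, 77.7 and 107 CPM in the WT libraries and 74.3, 68.9 and 74.1 CPM in the KO libraries. Eif4e2, a cap-binding relative known from translational repression, read 157, 152, 166 and 225 CPM in the WT libraries and 111, 144 and 145 CPM in the KO libraries. The gaps between the groups were narrow for both, and neither passed edgeR's test (log2 difference -0.31 ± 0.15 and -0.39 ± 0.18, SE; adjusted p = 0.321 and 0.300). The log2 difference of Eif4e2 was -0.24 without WT replicate 4 and -0.11 without KO replicate 1 and WT replicate 4. Eif4e3 was nearly constant in WT (10.1 to 10.5 CPM) and spread in KO (15.8, 5.80 and 17.6 CPM), with KO libraries on both sides of WT; its exons overlap Gm20696 on the same strand.

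The inhibitors that compete with eIF4G for eIF4E overlapped between the groups. Eif4ebp1 averaged 20.0 ± 5.17 CPM (KO) and 17 ± 2.35 CPM (WT). Eif4ebp2 averaged 60.0 ± 3.32 CPM (KO) and 59.5 ± 5.07 CPM (WT), with a 95% interval of the log2 difference from -0.27 to 0.30. Eif4enif1, which carries eIF4E into the nucleus, read 86.3, 68.8 and 36.5 CPM in the KO libraries and 67.7 to 76.2 CPM in WT, again with KO libraries on both sides.

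Among the scaffolds, Eif4g2, which lacks the eIF4E binding site and serves cap-independent initiation, read 1743, 1701, 1890 and 1434 CPM in the WT libraries and 1300, 1205 and 1530 CPM in the KO libraries. Only WT replicate 4 and KO replicate 3 crossed. The log2 difference was -0.33 (edgeR adjusted p = 0.360), and -0.36 without KO replicate 1 and WT replicate 4 (adjusted p = 0.174), where the groups did not overlap. Eif4g1, the main scaffold, averaged 234 ± 39.2 CPM (KO) and 267 ± 23 CPM (WT) and overlapped.

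The helicase Eif4a1 and its paralog Eif4a2 lay on opposite sides of 0 with all libraries (log2 difference -0.11 and 0.29), and Eif4a1 was at 0.00 without KO replicate 1 and WT replicate 4. Eif4a1, which has processed pseudogenes that may share its reads, averaged 292 ± 22 CPM (KO) and 316 ± 36.9 CPM (WT). Eif4a2 averaged 277 ± 31.6 CPM (KO) and 227 ± 40.4 CPM (WT), and its exons overlap Gm24616 on the same strand and Rfc4 on the other. The cofactor Eif4b averaged 171 ± 33.8 CPM (KO) and 145 ± 7.57 CPM (WT). Eif4h, which also stimulates the helicase, averaged 303 ± 31.4 CPM (KO) and 363 ± 60.7 CPM (WT). All 4 genes overlapped between the groups.

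Eif5, the GTPase activator of eIF2, read 515, 520, 597 and 375 CPM in the WT libraries and 922, 598 and 596 CPM in the KO libraries. KO replicate 1 stood far above the rest, and KO replicates 2 and 3 were level with WT replicate 3. The log2 difference of Eif5 was 0.49 ± 0.23 (SE; edgeR adjusted p = 0.301), and 0.25 without KO replicate 1. Eif5a, the hypusine-bearing factor that helps ribosomes past difficult peptide bonds, read 601, 593, 641 and 1108 CPM in the WT libraries and 747, 807 and 797 CPM in the KO libraries. WT replicate 4, the library with most markers of dividing cells, was above every KO library, and WT replicates 1 to 3 were below every KO library. The log2 difference of Eif5a was 0.09 ± 0.25 (SE) with all libraries and 0.36 without WT replicate 4.

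Of the remaining named initiation factors, Eif5a2, a second eIF5A gene, averaged 9.34 ± 3.55 CPM (KO) and 13 ± 1.13 CPM (WT). Eif2a, a factor apart from eIF2 that can deliver initiator tRNA, averaged 27.8 ± 9.63 CPM (KO) and 38.9 ± 3.90 CPM (WT), and its exons overlap Serp1 on the other strand. The log2 differences were -0.48 ± 0.31 and -0.48 ± 0.24 (SE; edgeR adjusted p = 0.460 and 0.347). In both, KO replicate 1 lay within the WT range and KO replicates 2 and 3 below it. Eif6, which keeps the ribosomal subunits apart, averaged 152 ± 15.2 CPM (KO) and 176 ± 16 CPM (WT) and overlapped.

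**Figure D2:**
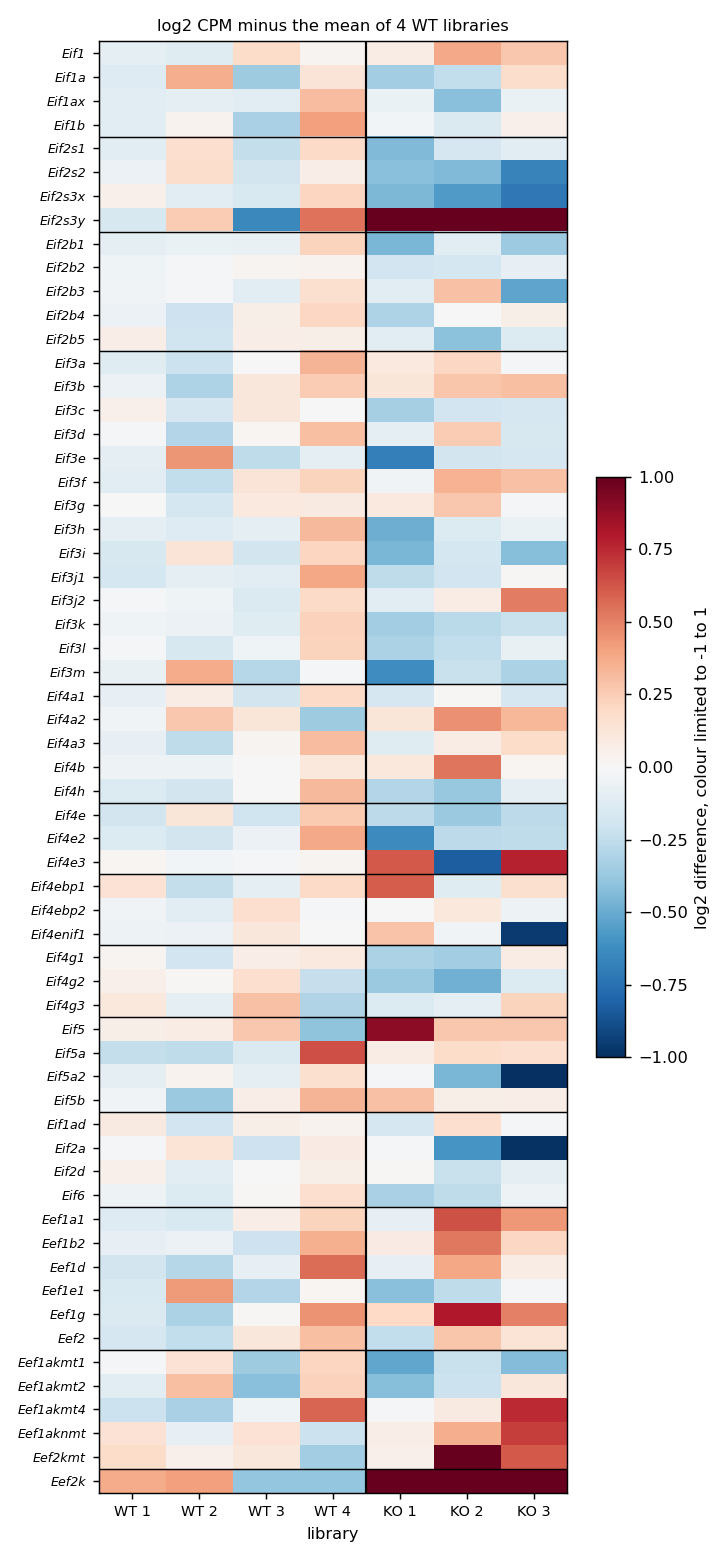
Difference of log2 CPM from the mean of the 4 WT libraries for each of the 61 genes (y axis, separated by class) in each library (x axis); red is above the WT mean and blue below, with the colour limited to -1 and 1. WT 4 is mostly red, with medians of 0.19 over initiation factors and 0.33 over elongation factors, and the row of Eef2k is red in all 3 KO libraries.

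By their median, elongation factors were above the WT mean in KO replicates 2 and 3 but not in KO replicate 1. Of the 6 factors 5 were above 0, with a median log2 difference of 0.18. This median was 0.04 without KO replicate 2, 0.28 without KO replicate 1, 0.37 without WT replicate 4 and 0.48 without KO replicate 1 and WT replicate 4. Their summed level was 2820, 2748, 3244 and 3771 CPM in the WT libraries and 2863, 4418 and 3863 CPM in the KO libraries. No factor separated the groups in all 7 libraries. Relative to the WT mean, the median over the 6 factors was 0.46 and 0.17 (log2) in KO replicates 2 and 3, 0.33 in WT replicate 4 and -0.08 in KO replicate 1.

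Eef1a1, the GTPase that brings aminoacyl-tRNA to the ribosome, read 1485, 1460, 1702 and 1894 CPM in the WT libraries and 1538, 2529 and 2196 CPM in the KO libraries. KO replicates 2 and 3 exceeded every WT library. The log2 difference was 0.35 ± 0.22 (SE; 95% interval -0.15 to 0.86; edgeR adjusted p = 0.435), and the gene has many processed copies in the genome that may share its reads. The log2 difference was 0.19 without KO replicate 2 and 0.53 without KO replicate 1. Eef1g, a subunit of the exchange complex eEF1B, read 92.4, 82, 103 and 139 CPM in the WT libraries and 117, 178 and 145 CPM in the KO libraries. Here WT replicate 4 alone reached into the KO range (log2 difference 0.50 ± 0.22, SE; edgeR adjusted p = 0.278), and without KO replicate 2 the log2 difference was 0.33.

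Of the exchange subunits that remain, Eef1b2 read 128, 130, 118 and 174 CPM in the WT libraries and 144, 196 and 157 CPM in the KO libraries. Eef1d read 119, 111, 128 and 200 CPM in the WT libraries and 128, 178 and 143 CPM in the KO libraries. In both, WT replicate 4 and KO replicate 2 were the highest libraries. Exons of Eef1b2 overlap Ndufs1 on the other strand and those of Eef1d overlap Naprt on the same strand. Eef1e1, a component of the tRNA synthetase complex, was the only factor below 0 and averaged 39.1 ± 5.56 CPM (KO) and 46.4 ± 10.6 CPM (WT).

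Eef2, the translocase and the substrate of the Eef2k kinase, read 953, 903, 1156 and 1319 CPM in the WT libraries and 902, 1299 and 1176 CPM in the KO libraries, with overlapping groups. The log2 difference was 0.06 ± 0.21 (SE; 95% interval -0.42 to 0.53; edgeR adjusted p = 0.913), and it was below 0 when WT replicate 1, WT replicate 2 or KO replicate 2 was left out. Per kilobase of exon, Eef1a1 stood at 656 CPM in WT and 837 CPM in KO and Eef2 at 326 and 339 CPM, ranks 1 and 2 of the 61 genes in both genotypes.

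Without KO replicate 1 and WT replicate 4, edgeR called Eef1a1 (log2 difference 0.63 ± 0.13, SE; adjusted p = 0.0393) and Eef1g (0.83 ± 0.14, SE; adjusted p = 0.0305) higher, 2 of the 11 elongation genes, where it called 5.43% of all genes higher and 4.20% lower. In 8 of the 11 both remaining KO libraries were above the 3 remaining WT libraries, as were 22.3% of all genes; Eef1e1, Eef1akmt1 and Eef1akmt2 were the exceptions. KO replicates 2 and 3 also had the highest sums of 8 naive or central memory T cell markers, 7199 and 5542 CPM, with 3181 CPM in KO replicate 1 and 2707 to 4039 CPM in WT; of the 8 markers 3 were higher in every KO library than in any WT library. The part of such cells in the result was not tested.

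The methyltransferases that modify elongation factors were scattered. Eef2kmt, which methylates eEF2, was the only one at an unadjusted p under 0.05 and is named because of its value. It read 25, 22.9, 23.9 and 17.3 CPM in the WT libraries and 22.8, 48.6 and 33.7 CPM in the KO libraries, so KO replicate 1 lay within the WT range (log2 difference 0.65 ± 0.27, SE; edgeR adjusted p = 0.258). Its exons overlap Alg1 and Gm15983 on the other strand. The other 4 had log2 differences from -0.40 to 0.39 and overlapped.

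**Figure D3:**
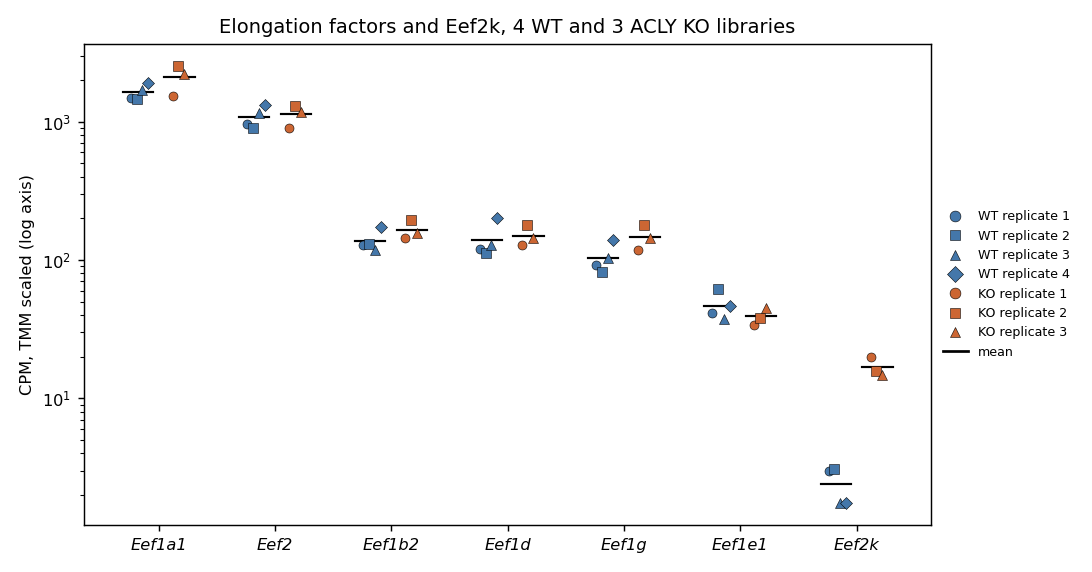
CPM on a log axis (y) of the 6 elongation factors and Eef2k (x) in each library; symbols mark the replicates, blue is WT, orange is ACLY KO, and black lines are means. The groups overlap for every factor and are apart for Eef2k, with 1.75 to 3.07 CPM in WT and 14.8 to 19.8 CPM in KO.

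Eef2k had the smallest p of the 61 genes. It lies on the plus strand of chromosome 7 (120842831 to 120907450 in mm10), and its exons overlap no other measured gene. The transcript read 2.98, 3.07, 1.75 and 1.75 CPM in the WT libraries and 19.8, 15.8 and 14.8 CPM in the KO libraries, from 91 to 216 counts in WT and 578 to 742 counts in KO. The lowest KO library was well above the highest WT library. KO libraries averaged 16.8 ± 2.67 CPM (SD, n = 3) and WT libraries 2.39 ± 0.740 CPM (SD, n = 4), 7.04-fold apart, with a log2 difference of 2.81 ± 0.33 (SE; 95% interval 2.04 to 3.59).

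In edgeR this p ranked 4 of 16156 genes, yet it missed the threshold after adjustment (adjusted p = 0.0651). DESeq2 called the gene (adjusted p = 5.69e-15), as did limma voom (adjusted p = 0.00245) and the bias-adjusted fit of edgeR (adjusted p = 0.00868), which called 3.07% of all genes higher and 0.477% lower. edgeR called it with WT replicate 4 or KO replicate 1, 2 or 3 left out, when 0.690%, 0.687%, 0.730% and 0.879% of genes were called higher. It was not called without WT replicate 1, 2 or 3 (adjusted p = 0.233, 0.194 and 0.169). Over 16 alternative fits the log2 difference ran from 2.56 to 2.96.

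Eef2k was a scarce transcript in both genotypes. Per kilobase of exon it stood at 0.322 CPM in WT and 2.27 CPM in KO, ranks 60 and 59 of the 61 genes. The ratio of Eef2k to Eef2 counts within a library does not depend on scaling. It was 0.00313, 0.00340, 0.00151 and 0.00133 in the WT libraries and 0.0220, 0.0121 and 0.0126 in the KO libraries, without overlap. The log2 ratio averaged -6.06 ± 0.48 in KO (SD, n = 3) and -8.86 ± 0.70 in WT (SD, n = 4), a difference of 2.80. The two-sided exact permutation test over the 7 libraries gave p = 0.0286, the smallest it can give, and 0.114 after adjustment over 4 ratios. Eef2k was already known to be among the genes with the smallest p of these libraries when the ratio was chosen. The test of the ratio is therefore no separate support for the difference in Eef2k.

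The 3 other ratios compared paralogs and overlapped between the groups. The log2 difference was 0.41 for Eif4a2 to Eif4a1 (exact permutation p = 0.143, adjusted 0.286), 0.48 for Eif4e3 to Eif4e (exact permutation p = 0.286, adjusted 0.381) and -0.20 for Eif4ebp2 to Eif4ebp1 (exact permutation p = 0.543, adjusted 0.543). The Eif4a2 ratio was lowest in WT replicate 4, and without that library its log2 difference was 0.23. That of the Eif4e3 ratio was 0.29 without KO replicate 1, 0.96 without KO replicate 2 and 0.21 without KO replicate 3.

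**Figure D4:**
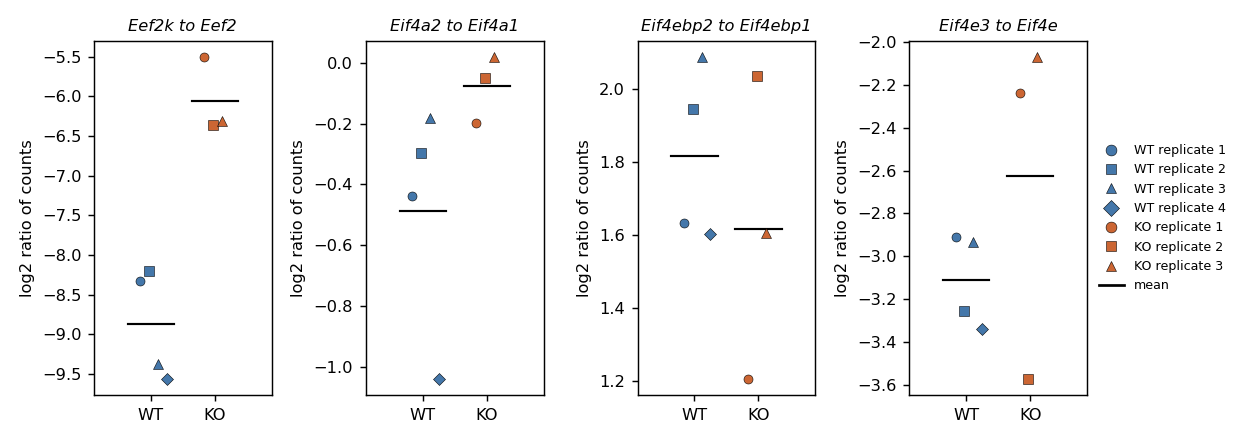
Log2 ratio of the counts of paired genes within each library (y axis) for WT (blue) and ACLY KO (orange), a panel for each pair; symbols mark the replicates and black lines the means. The groups are apart for Eef2k to Eef2 and overlap for the 3 pairs of paralogs.

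Markers of other cells differed between the genotypes beside Eef2k. Among the KO libraries the B cell marker sum ran from 103 to 6162 CPM and Eef2k from 14.8 to 19.8 CPM. Without KO replicate 1, which has the highest B cell sum, the log2 difference of Eef2k was 2.68 (edgeR adjusted p = 0.0414). Macrophage and monocyte markers (9 of 10 measured) summed to 1162, 63.1 and 908 CPM in the KO libraries and to 16.3 to 29.6 CPM in WT. Neutrophil markers (4 of 8 measured) summed to 456, 30.0 and 1.33 CPM in KO and to 0.115 to 0.576 CPM in WT, and CD4 T cell markers (4 of 5 measured) to 205, 19.2 and 57.3 CPM in KO and to 52.0 to 56.7 CPM in WT. The naive or central memory sum lay within the WT range in KO replicate 1, where Eef2k was highest. In WT the Eef2k level was 1.75 CPM in replicates 3 and 4, whose sums of dividing cell markers were 269 and 3346 CPM. The share of OT-I receptor segments was lower in every KO library than in any WT library. The part of cells that do not carry this receptor therefore cannot be told apart from that of the genotype, and it was not tested.

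**Figure D5:**
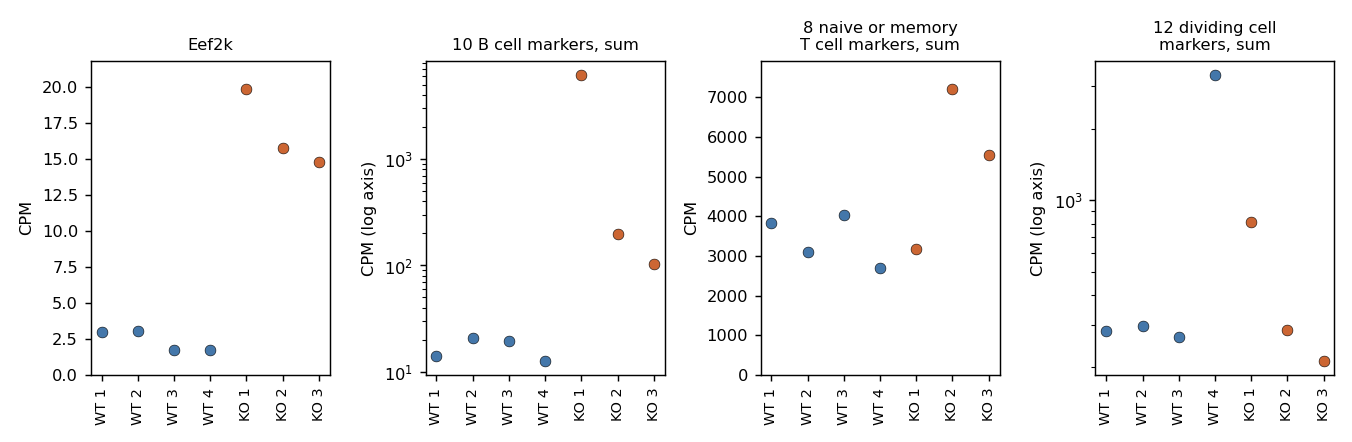
CPM of Eef2k and summed CPM of markers of B cells, of naive or memory T cells and of dividing cells (y axes) in each library (x axis; blue WT, orange ACLY KO); the B cell and dividing cell panels have log axes. Eef2k is at 14.8 to 19.8 CPM in the 3 KO libraries, and the B cell sum runs from 103 to 6162 CPM among them.

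RefSeq promoter windows (250 bases before to 50 after an annotated start, GRCm38.p6) were found for 48 of the 61 genes by symbol. Searched on both strands were CACGTG (the E-box bound by MYC and its relatives, which reads alike on both strands), CCGGAAGT (a form of the ETS site) and AAGATGG, none of which contains another. CACGTG stood in 16 of 62 windows (25.8%), and in 9.68% of the windows of all measured genes and 7.15% of all RefSeq windows. The 14 genes with it included Eef2k, Eef2, Eif4e, Eif4g1, Eif4a1, Eif4h and Eif5a, whose differences lay on both sides of 0. CCGGAAGT stood in 16.1% of the windows and AAGATGG in 12.9%, and in 8.03% and 7.05% of the windows of measured genes (3.89% and 6.34% of all RefSeq windows). A match describes letters, not a bound site.

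The 250 bases before the first of 3 annotated starts of Eef2k (chr7:120842581-120842830, plus strand) and before the annotated start of Eef2 (chr10:81176381-81176630, plus strand) are shown because the kinase and its substrate both hold CACGTG, in capitals, while their transcripts differed by very unequal amounts.
Eef2k: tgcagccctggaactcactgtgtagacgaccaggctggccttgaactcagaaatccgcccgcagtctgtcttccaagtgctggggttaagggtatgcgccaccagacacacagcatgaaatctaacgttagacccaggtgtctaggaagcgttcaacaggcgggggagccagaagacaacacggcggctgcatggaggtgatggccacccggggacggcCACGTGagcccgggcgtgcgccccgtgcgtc
Eef2: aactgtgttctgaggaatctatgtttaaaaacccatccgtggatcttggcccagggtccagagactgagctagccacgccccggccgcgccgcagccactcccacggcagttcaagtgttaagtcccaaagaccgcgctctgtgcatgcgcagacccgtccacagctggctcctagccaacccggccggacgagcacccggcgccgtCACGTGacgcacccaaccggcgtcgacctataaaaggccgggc

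The genes that act on these factors were counted in 5 lists, with 45 of 47 listed genes measured. None passed edgeR's test after adjustment. At an unadjusted p under 0.05, 2 were higher and 9 lower (11.0% and 7.89% of all genes), and 2 lay wholly above and 11 wholly below WT (9.46% and 9.03% of all genes). Their median log2 difference was -0.02.

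Of 12 measured inputs of Eef2k and phosphatase genes of eEF2, 10 lay below 0 (50% of all genes did; median log2 difference -0.37), and in 6 every KO library was below every WT library (9.03% of all genes). Rptor, the mTORC1 subunit that recruits substrates, read 98, 88.2, 95.9 and 67 CPM in the WT libraries and 56.8, 40.5 and 51.8 CPM in the KO libraries (log2 difference -0.81 ± 0.19, SE; edgeR adjusted p = 0.0891, DESeq2 adjusted p = 0.00379); its exons overlap the antisense gene Rptoros. Ppp2cb, a catalytic subunit of protein phosphatase 2A, read 122, 121, 132 and 111 CPM in the WT libraries and 91.7, 73.9 and 85.5 CPM in the KO libraries (log2 difference -0.54 ± 0.12, SE; edgeR adjusted p = 0.0896, DESeq2 adjusted p = 0.00447). Neither gene overlapped between the groups.

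Calm2 and Calm3, which encode the calmodulin that activates the kinase, were also wholly below WT and are named because of their values. Calm2 averaged 395 ± 41.5 CPM (KO) and 737 ± 176 CPM (WT). Calm3 averaged 169 ± 24.7 CPM (KO) and 264 ± 71.7 CPM (WT). Both transcripts were thus lower in each library in which the kinase transcript was higher, and edgeR gave adjusted p = 0.0911 and 0.185.

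Among kinases and phosphatase subunits of eIF2 alpha (7 genes, 4 above 0 and 3 below), Eif2ak4, the sensor of uncharged tRNA known as GCN2, read 18.2, 17.2, 18.8 and 10.7 CPM in the WT libraries and 30.9, 28.8 and 24 CPM in the KO libraries, without overlap (log2 difference 0.78 ± 0.24, SE; edgeR adjusted p = 0.153, DESeq2 adjusted p = 0.0230). Limma voom did not call Eif2ak4 (adjusted p = 0.101), and neither did edgeR's bias-adjusted fit (adjusted p = 0.114). Without KO replicate 1 and WT replicate 4 its log2 difference was 0.57 (edgeR adjusted p = 0.0779). Ppp1cc, a phosphatase catalytic subunit, averaged 70.7 ± 9.40 CPM (KO) and 92.5 ± 11.4 CPM (WT), wholly below. The other 5 genes overlapped.

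Of 9 partners of eIF4F, 6 were above 0 and 3 below. Paip2b and Paip2, inhibitors of the poly(A)-binding protein, lay wholly below WT. Paip2b ranged from 20.5 to 27.1 CPM in KO and from 34 to 38.5 CPM in WT, and Paip2 from 257 to 277 and from 289 to 370 CPM (edgeR adjusted p = 0.135 and 0.212). The other 7 genes overlapped.

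Of 9 enzymes and helpers that build diphthamide on eEF2 and hypusine on eIF5A, 7 were above 0. Dph5, a methyltransferase of diphthamide synthesis, read 44.4, 43.9, 43.8 and 50.8 CPM in the WT libraries and 82, 117 and 66.6 CPM in the KO libraries, without overlap (log2 difference 0.95 ± 0.20, SE; edgeR adjusted p = 0.0757, DESeq2 adjusted p = 0.000760). Its exons overlap A930005H10Rik. Dnajc24, a chaperone of the same pathway, averaged 17.8 ± 0.951 CPM (KO) and 23.8 ± 5.0 CPM (WT) and overlapped.

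In termination and ribosome recycling 6 of 8 measured genes were below 0 and none was at an unadjusted p under 0.05. Mcts2 averaged 3.70 ± 1.94 CPM (KO) and 1.91 ± 0.273 CPM (WT) and overlapped. Pelo, a rescue factor of stalled ribosomes, averaged 0.980 ± 0.386 CPM (KO) and 1.80 ± 0.0962 CPM (WT) and lay wholly below WT, as did Denr, a recycling factor named because of this count; exons of Pelo overlap Gm10734.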

How the data were processed

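Total RNA of 7 libraries of mouse CD8 T cells (3 ACLY KO, 4 WT) was sequenced. Trim Galore 0.6.0, STAR 2.7.8, DESeq2 and mm10 were used, per the submitters' processing notes. How reads were assigned to genes, with which annotation, strand setting and filter, is not given in the sources used here. Raw counts of 16156 genes were deposited by the authors. They also deposited log2 CPM, which equalled values recomputed with edgeR (TMM, prior count 2) within 4.99e-09 and supplied the symbols.

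All genes were fitted in edgeR 4.0.16 under R 4.3.3, by quasi-likelihood with genotype as the only term; filterByExpr removed 0 genes, p-values were adjusted by Benjamini-Hochberg, and the threshold was 0.05. The alternatives comprised DESeq2 1.42.0, limma 3.58.1 (voom with quality weights), edgeR's bias-adjusted fit, scaling by RLE or upper quartiles, the fit unfiltered or limited to a mean count of 10, a replicate block, and libraries left out. A floor of 3 counts is 0.0397 to 0.0801 CPM. GENCODE M21 gave coordinates, exon lengths and overlaps for 16136 genes. The genotype fits of edgeR, DESeq2 and limma voom were tested on simulated counts with the same dispersion for every gene. The permutation test and the other steps were not.

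Members, lists and tests were chosen with earlier results of these data known. The rule for naming took Eef2k, the elongation factors, both eIF2 gamma genes, the paired genes, and in each initiation class the 2 genes with the smallest p and that with the highest CPM (35 of 61 genes). In each pathway list it took the 2 genes with the smallest p.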

Additional observations from a re-analysis of the deposited data

Results flagged for a closer look

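Of 39 results tested in the 4 WT libraries (35 named genes and 4 ratios, as log2), 4 had a library far from the other 3, by a gap above the 95% critical value of Dixon's ratio of gap to range; chance flags about 1 in 20. In 3 of them it was WT replicate 4. For Eif5a the gap was 0.878 of the range, with 10.1 log2 CPM in WT replicate 4 and 9.21 to 9.32 in the others. For Eif1ax it was 0.941, with 6.43 against 6.01 to 6.04 log2 CPM. For Eif2b1 it was 0.920, with 6.21 against 5.90 to 5.93 log2 CPM. For Eif2b5 it was WT replicate 2 that lay apart, with a gap of 0.964 and 6.52 against 6.78 to 6.79 log2 CPM.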

How the results depend on the processing

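The count of initiation factors called lower went from 0 to 2 with DESeq2, and that of elongation genes called higher from 0 to 2 without KO replicate 1 and WT replicate 4. Among the alternatives, the unfiltered fit equalled the main fit, as filterByExpr removed 0 genes. Eef2k kept its direction in 16 of 16 alternatives, which the wide gap between its groups had fixed in advance. Its log2 difference was 2.84 with DESeq2, 2.56 with limma voom, 2.81 with the bias-adjusted fit and 2.57 without KO replicate 1 and WT replicate 4, each past the threshold, and 2.68 to 2.96 with 1 library left out. Its edgeR adjusted p was 0.0392 to 0.0425 without WT replicate 4 or 1 KO library, and 0.169 to 0.233 without WT replicate 1, 2 or 3. With 1 library left out, the Eif4ebp2 to Eif4ebp1 ratio ran from -0.41 to 0.0044 (log2). Signs also turned, with no call, for Eef1d (-0.043 to 0.33), Eef2 (-0.059 to 0.19), Eif4ebp2 (-0.032 to 0.073) and Eif4enif1 (-0.43 to 0.13), and Eif4a1 was at 0.0038 without KO replicate 1 and WT replicate 4. Deviations of same-numbered KO and WT libraries had r = -0.108, -0.0513 and 0.137, and those of unlike number had r from -0.0880 to 0.0988. These values cannot decide whether the numbers pair libraries, as the KO libraries also differed in markers of other cells. With the replicate block Eef2k was at 2.72 (edgeR adjusted p = 0.225) and no member was called. The cause of these changes was not tested. The 91 to 216 counts of Eef2k limit the precision of its WT level.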
